A study of Mus musculus with 30 samples.

Results

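In microglia with a deletion of Mir137, 888 genomic regions carried both RNA polymerase II (Pol II) and its Ser5-phosphorylated form (Ser5P) at positions away from the ends of protein-coding genes. They were taken from the authors' list of 4647 Pol II regions specific to the knockout by 3 steps. Of these 4647, 2380 (51.2%) shared at least 1 bp with a region of the knockout-specific Ser5P list, and 2026 (43.6%) also overlapped no region of either H3K27ac list. The 888 that remained (19.1%) lay more than 2 kb from both ends of every protein-coding gene of the mouse RefSeq annotation. All 10 lists of the study together held 22399 regions. The members were therefore selected on the Pol II, Ser5P and H3K27ac lists, and what follows on those values is a description. They are called distal Pol II/Ser5P regions here.

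The cells were sorted primary microglia from the brains of C57BL/6J mice, labelled 8 weeks old. Both genotypes carried a tamoxifen-inducible Cre recombinase at Tmem119 (Tmem119-CreERT2), and both received tamoxifen on 7 consecutive days. The control mice (cWT) had intact Mir137 (Mir137+/+), and the knockout mice (cKO) had Mir137 flanked by loxP sites on both alleles (Mir137loxP/loxP). The recombinase is limited to cells that express Tmem119, a microglial gene, and the lists hold no reading of how completely Mir137 was removed. Antibodies against Pol II, Ser5P, H3K27ac, H3K4me3 and Pu.1 were used in CUT&Tag, a method in which a transposase tethered to the antibody cuts the DNA beside the bound protein. The series text calls the assay ChIP-seq, while the protocol describes CUT&Tag on about 100000 cells per genotype. The labels give 3 replicates for each of 2 genotypes and 5 antibodies, 30 samples in all, and the text mentions 4 mice. The protocol lists 1 catalogue number for the Pol II, Ser5P and H3K27ac antibodies, and 1 for H3K4me3 and Pu.1. How far antibodies with a shared number are independent readings was not tested.

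Pol II is the enzyme that transcribes protein-coding genes and most microRNA genes. The tail of its largest subunit is phosphorylated on serine 5 when transcription begins, so Ser5P marks polymerase at or just past a start site. Active enhancers, internal promoters and noncoding RNA genes also recruit Ser5-phosphorylated polymerase and are transcribed into short or unstable RNA. H3K4me3 marks active promoters, H3K27ac marks active promoters and enhancers, and Pu.1 is the ETS transcription factor that binds most enhancers of macrophages and microglia.

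Each list holds 1 value per region and none per replicate, and the read depth is unknown. No difference below could therefore be set against the spread between mice, and every p-value describes lists of regions. The 5 cKO lists held 4647 Pol II, 6163 Ser5P, 1017 Pu.1, 1331 H3K4me3 and 847 H3K27ac regions. The cWT lists of Pol II and Ser5P were short, with 394 and 127 regions, and the cWT list of H3K27ac was long, with 6995. A region outside a list is only unlisted; its signal is not known.

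One distal Pol II/Ser5P region lay at the microRNA gene cluster of Mir212 and Mir132. The region at chr11:75173298-75173581 (mm10) contained the whole hairpin of Mir212 (75173388 to 75173478, plus strand), and the hairpin of Mir132 began 101 bp beyond its end. The overlapping Ser5P region, chr11:75173272-75173690, reached into the Mir132 hairpin but ended before its mature 3p sequence (75173723 to 75173744). The mature 3p sequences of these 2 microRNAs are shown with that of Mir210, 134 bp from another distal region, and the 5p sequence of Mir21a, 4729 bp from another. They are RefSeq sequences on GRCm38.p6, written 5′ to 3′ with the seed (bases 2 to 8) in capitals.
mmu-miR-132-3p: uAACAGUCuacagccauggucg
mmu-miR-212-3p: uAACAGUCuccagucacggcca
mmu-miR-210-3p: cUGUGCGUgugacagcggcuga
mmu-miR-21a-5p: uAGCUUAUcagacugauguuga
The first 2 share the seed AACAGUC. miR-132 and miR-212 are known from neurons and immune cells as microRNAs of activity and inflammation, miR-210 responds to hypoxia, and miR-21 is abundant in macrophages.

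Some members lay over annotated starts inside genes. The rule used the outer ends of each gene, so alternative starts within a gene and starts of noncoding RNAs remained. Of the 888 regions, 84 overlapped a RefSeq promoter window, which runs from 250 bases before to 50 after a start. Shown are the 250 bases before the start at 4 such sites that lay largely inside the member: Eci2, an enzyme of fatty acid oxidation, Fgd3, an activator of the small GTPase Cdc42, Iqgap1, an actin scaffold, and the long noncoding RNA Malat1. They are RefSeq sequences on GRCm38.p6, each written 5′ to 3′ on the minus strand, that of the transcript. Capitals mark GAGGAA (the core bound by ETS factors such as Pu.1), TGANTCA (AP-1), GGGCGG (GC box), CCAAT and TATAAA, searched on both strands.
Eci2, chr13:34994145-34994394: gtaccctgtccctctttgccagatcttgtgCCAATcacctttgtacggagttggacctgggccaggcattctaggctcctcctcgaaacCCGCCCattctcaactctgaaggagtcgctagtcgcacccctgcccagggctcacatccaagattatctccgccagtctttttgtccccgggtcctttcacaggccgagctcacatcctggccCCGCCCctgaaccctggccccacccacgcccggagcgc
Fgd3, chr13:49309209-49309458: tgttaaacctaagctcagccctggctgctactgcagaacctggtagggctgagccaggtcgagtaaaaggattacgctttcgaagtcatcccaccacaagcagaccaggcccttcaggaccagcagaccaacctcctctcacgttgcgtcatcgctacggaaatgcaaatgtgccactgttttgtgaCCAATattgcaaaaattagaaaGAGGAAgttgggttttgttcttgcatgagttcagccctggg
Iqgap1, chr7:80803332-80803581: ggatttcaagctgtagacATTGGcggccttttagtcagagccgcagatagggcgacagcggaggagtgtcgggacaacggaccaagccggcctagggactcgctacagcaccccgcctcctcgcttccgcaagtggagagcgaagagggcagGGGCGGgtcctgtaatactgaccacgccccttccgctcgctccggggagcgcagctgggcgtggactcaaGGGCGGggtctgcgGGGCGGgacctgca
Malat1, chr19:5802673-5802922: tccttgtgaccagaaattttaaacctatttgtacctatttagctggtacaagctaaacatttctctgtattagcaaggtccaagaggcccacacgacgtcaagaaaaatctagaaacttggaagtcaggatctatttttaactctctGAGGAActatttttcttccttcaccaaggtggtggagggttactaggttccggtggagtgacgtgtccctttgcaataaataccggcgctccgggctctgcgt
The Eci2 and Iqgap1 stretches hold 2 and 3 GC boxes, while those of Fgd3 and Malat1 hold none and 1 GAGGAA each.

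The Pol II and Ser5P regions lay almost on top of each other. The members had a median width of 378.5 bp (181 to 1255), and the Ser5P region that shared the most bases with each had a median width of 366.5 bp (169 to 1556). They shared a median of 291 bp, which was 98.3% of the shorter region. In 734 of 888 (82.7%) at least 80% of the shorter region was shared, and in 386 the whole of it. Midpoints lay within 100 bp of each other in 644 members. Neither antibody gave the wider region throughout, since Ser5P was wider in 412 of 888. The 3 shortest overlaps were 1, 2 and 5 bp, the first on chromosome 10 with no coding gene within 100 kb and the others at Rreb1 and Sctr. Just outside the limit, 20 of the 1032 distal Pol II regions without listed Ser5P lay within 100 bp of a Ser5P region. The members drew on 895 of the 6163 Ser5P regions.

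Strong Pol II regions tended to be strong in Ser5P. The deposited signal, the authors' value for each region on an unstated scale, had a median of 12.7 for Pol II (4.10 to 30.1) and 10.4 for Ser5P (3.72 to 29.1). Across the 888 regions the 2 signals had a Spearman rho of 0.593 and a Pearson r of 0.608, and the widths a Spearman rho of 0.330. This describes regions that share cells and, per the protocol, an antibody catalogue number, so no p is given. The plot of the 2 signals shows them as 1 cloud. The 3 members furthest to the right of it had no Pu.1 region.

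**Figure D1:**
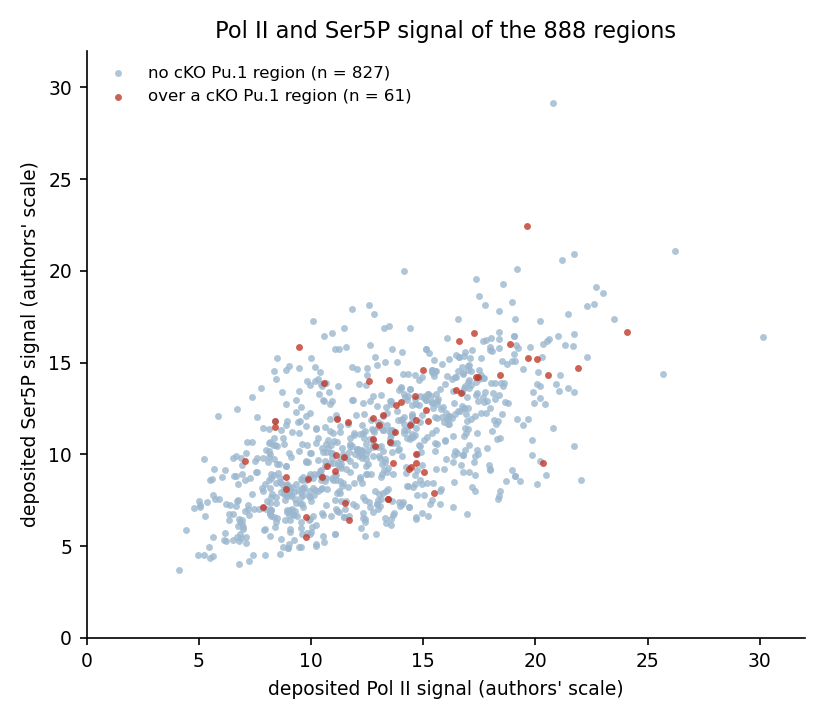
Deposited Pol II signal (x axis) against deposited Ser5P signal (y axis), both on the authors' scale, for the 888 distal Pol II/Ser5P regions; each point is 1 region, red where it overlapped a cKO Pu.1 region (61) and blue where it did not (827). Red points are spread through the cloud, with Pol II signals from 7.06 to 24.1.

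The strongest region by Pol II signal, 30.1, lay at chr6:99784971-99785361, 58579 bp from Prok2, which encodes a secreted chemokine-like peptide. Its Ser5P signal was 16.4. The next, with Pol II at 26.2 and Ser5P at 21.1, lay at chrX:13041751-13042164 over the start of the noncoding RNA 5730405O15Rik. Its nearest coding gene was Usp9x, a deubiquitinase, 28818 bp away. A region at chr14:62001544-62001961 followed at 25.7 and 14.4, with no coding gene within 100 kb. Regions inside Pms1 and near Rbpj came next, with Pol II signals of 24.1 and 23.5. Pms1 encodes a mismatch repair protein, and Rbpj the DNA-binding factor of Notch signalling. Stau2, an RNA-binding protein, Hmcn1, an extracellular matrix protein, and Msh6, another mismatch repair protein, held the others of the 8 strongest, at 23.0, 22.7 and 22.6.

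The deposited p-values were mostly large. The Pol II p had a median of 0.742, and 3 of 888 members (0.338%) were under 0.05, beside 0.366% of the whole Pol II list. These 3 were the regions near Prok2 (0.0249), inside Tmem266 (0.0324) and inside Msh6 (0.0476). No member had a deposited adjusted p under 0.05. The lowest was 0.421 in members and 5.1e-04 in distal Pol II without listed Ser5P. The Ser5P p was also under 0.05 in 3 members (0.338%), all different: the Gm33933 region (0.0279), a region on chromosome X (0.00889) and one on chromosome 9 (5.2e-04). The share under 0.05 in the whole Ser5P list was not counted, so this count has no background beside it. The sources used here do not say what these p-values test, and they were not used to choose members.

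Most members lay inside genes. The midpoint of 526 (59.2%, exact 95% interval 55.9 to 62.5%) was within the span of a coding gene, and 100 more were within the span of a noncoding gene only. Exons and introns could not be told apart with the gene table used. The median distance to the nearest coding gene end was 16712 bp, with 130 members between 2 and 5 kb, 584 beyond 10 kb and 167 beyond 50 kb. Of the 428 members inside genes of known strand, 121, 133, 99 and 75 lay in 4 successive stretches of equal length from the 5′ end. The distal Pol II regions without listed Ser5P were placed in the same order, 123, 143, 122 and 101 of 489.

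**Figure D2:**
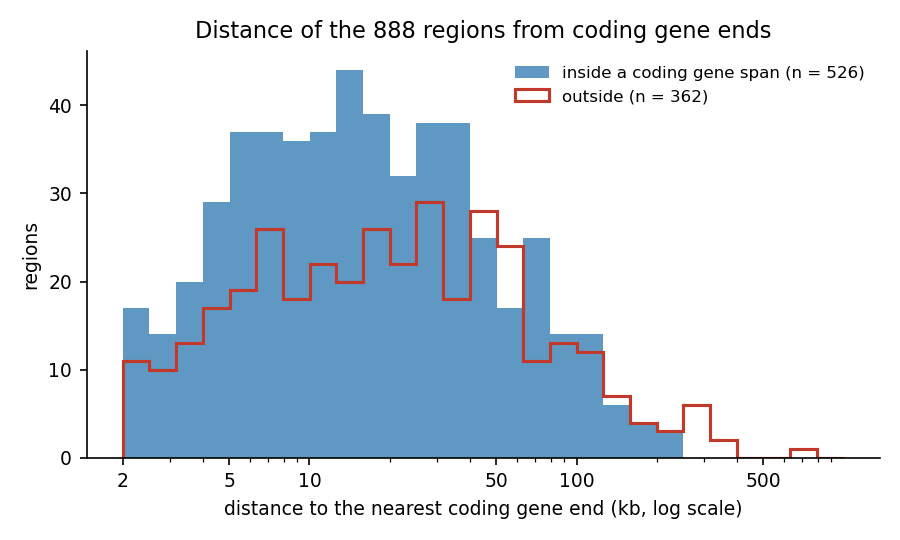
Distance from each of the 888 regions to the nearest end of a coding gene (x axis, kb, log scale) against the number of regions (y axis); filled bars are the 526 regions inside a coding gene span and the red outline the 362 outside. Both distributions start at the 2 kb limit that chose the regions, and the median over all 888 was 16712 bp.

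At the 2 kb limit, the members just inside it were near Nemp1 (2013 bp from a gene end, Pol II signal 13.6), in H2bc6 (2021 bp, 9.77) and in Themis2 (2024 bp, 6.16). The regions that just missed it were at Zfp286 (1997 bp, 17.5), Gm51591 (1989 bp, 11.1) and Mturn (1962 bp, 8.66). The 3 signals on each side ran over similar values.

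Regions were not always separate events. Of the 888, 34 lay end to end with another member, as 17 pairs, and each pair carried the same deposited Pol II signal. Counting each pair once leaves 871. A total of 96 members had another within 10 kb.

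A pair of other classes of the cKO Pol II list show where the distal Pol II/Ser5P regions differ. The first was 1032 Pol II regions under the same distance and H3K27ac conditions but without a listed Ser5P region. The second was 1138 Pol II regions with Ser5P and without H3K27ac that lay within 2 kb of a gene end. Each share was set against the members' share by Fisher's exact test, two-sided, with Benjamini-Hochberg adjustment over 9 tests. The 2 of these on distance to H3K27ac are not read as tests, since the rule used the H3K27ac lists, and only their shares are given. Intervals are exact Clopper-Pearson at 95% and cover the counting of regions only.

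Set against distal Pol II without listed Ser5P, no tested feature passed the threshold with the 2 kb limit. The share inside coding genes was 59.2% against 60.4% (odds ratio 0.954, 95% interval 0.795 to 1.15, exact test adjusted p = 0.641). That direction turned under 3 of the alternatives. The share over a cKO Pu.1 region was 6.87% against 5.43% (odds ratio 1.28, 0.885 to 1.86, exact test adjusted p = 0.332). The share over H3K4me3 was 3.38% against 2.81% (odds ratio 1.21, 0.723 to 2.02, exact test adjusted p = 0.614). The intervals still allow a difference of the order of their bounds in either direction.

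Set against the gene-end class, the distal regions overlapped Pu.1 more often and H3K4me3 less often. Pu.1 was listed at 61 of 888 (6.87%, 5.29 to 8.74%) against 22 of 1138 (1.93%, 1.22 to 2.91%), an odds ratio of 3.69 (2.26 to 6.03, exact test adjusted p = 1.23e-07). H3K4me3 of either genotype was listed at 30 (3.38%, 2.29 to 4.79%) against 133 (11.7%, 9.88 to 13.7%), an odds ratio of 0.268 (0.179 to 0.401, exact test adjusted p = 1.41e-11). These 2 differences kept their direction and stayed past the threshold in each alternative run for them, all of which kept a split by distance. Per the protocol, the Pu.1 and H3K4me3 antibodies share a catalogue number. The 2 classes differ by definition in their distance from gene ends. Since H3K4me3 marks promoters, its lower share away from gene ends is read as a description. The part of that definition in either difference was not tested. The share inside coding genes, 59.2% against 75.9% in the gene-end class, follows in part from that definition and was not tested.

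**Figure D3:**
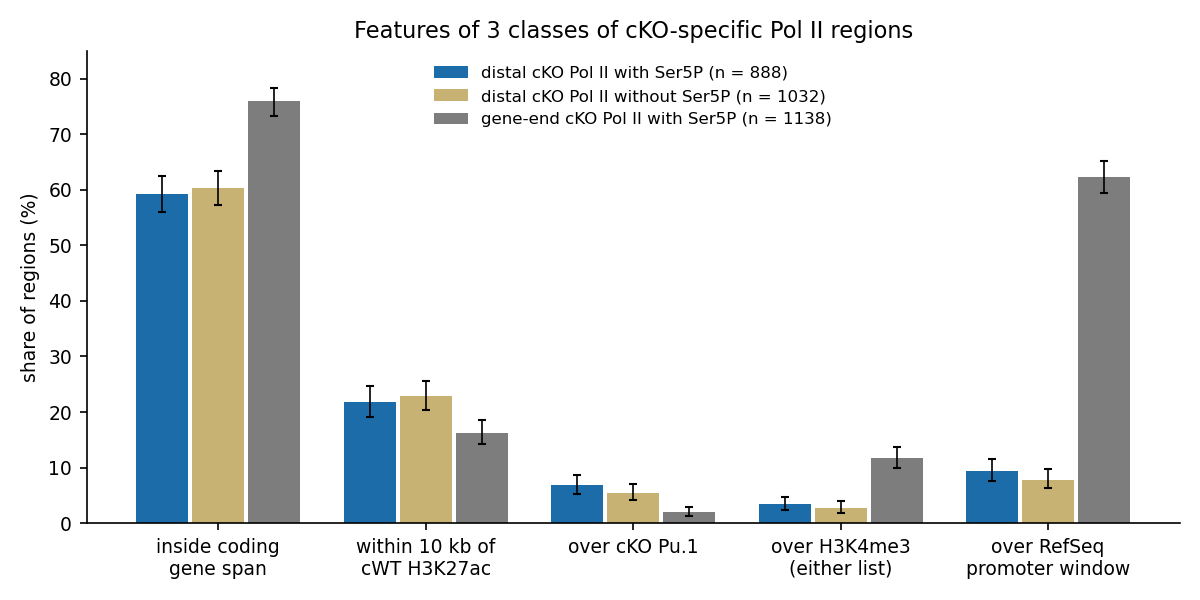
Share of regions (y axis, %) with each of 5 features (x axis) in 3 classes of cKO Pol II regions; bars are the share of the class, and error bars the exact 95% interval for the counting of regions. The blue and sand bars, distal with and without listed Ser5P, have overlapping intervals for all 5 features. The grey gene-end bars differ from blue by definition in distance from gene ends. Their shares against blue were 1.93 against 6.87% for Pu.1 and 11.7 against 3.38% for H3K4me3. Coding span (75.9 against 59.2%), H3K27ac (16.3 against 21.7%) and promoter window (62.3 against 9.46%) are given as shares only, and their intervals are not read as tests.

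Over the whole cKO Pol II list, 3.68% of regions overlapped a cKO Pu.1 region. The 61 distal Pol II/Ser5P regions with Pu.1 had a median Pol II signal of 13.6 and a median Ser5P signal of 11.6, against 12.5 and 10.3 for the 827 without. The strongest lay inside Pms1 (chr1:53265022-53265401, Pol II 24.1, Ser5P 16.6), followed by one near 1700056E22Rik (21.9) and one inside Pias1 (20.6), which encodes a SUMO ligase. The next were near Ptger2 (20.3), a prostaglandin E2 receptor, near Batf3 (20.1) and near Klf6 (19.7). The list closed with Gm33933 (19.6) and Atf6 (18.9), a sensor of endoplasmic reticulum stress. Etv6, an ETS repressor of blood cells, was the only gene among those with at least 3 members to hold Pu.1 at 2 of them. These were chr6:134064941-134065428 (Pol II 7.06, Ser5P 9.65) and chr6:134115245-134115693 (14.7 and 9.54). Fli1, another ETS factor, had 1 member with Pu.1 inside the gene (11.1 and 9.95). A cWT Pu.1 region was overlapped by 3 of the 888 (0.338%), from a list of 44 regions beside 1017 in cKO. The share over the whole cKO Pol II list was not counted for cWT Pu.1, so this count has no background beside it. None of the 61 overlapped a RefSeq promoter window, beside 84 of all 888 members (9.46%). The members near Gm26650, Gm8279, Gm33933 and Gm3667, all with Pu.1, lay on chromosome 14 between 4852534 and 6894002, and 2 more near Speer4d and Speer4c, copies of 1 gene family. Without 1 Mb windows that hold at least 10 predicted genes, the Pu.1 share was 7.63% of the 354 members left.

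H3K4me3 was listed at 7.81% of all cKO Pol II regions and at 30 of the 888. The cKO list accounted for 20 and the cWT list for 11, with Eci2 in both. The strongest by Pol II signal lay far from any coding gene, at chrX:129056558-129056833 (Pol II 20.8, Ser5P 29.1, the highest Ser5P signal of all members). Regions near Scd2 (18.4), a stearoyl-CoA desaturase, near Jak1 (18.4), the kinase of interferon and cytokine receptors, and inside Cyp7b1 (18.0), an oxysterol hydroxylase, overlapped the cKO list. Those in Col19a1 (18.0), near Scgb2a2 (17.9) and in Ppp2r5c (16.98), a regulatory subunit of protein phosphatase 2A, overlapped the cWT list. Of the 30, 7 also overlapped a RefSeq promoter window, beside 84 of all 888 members (9.46%). The windows were those of Akap7, Eci2, Fgd3, Ldha, Mast3, Ppp2r5c and the long noncoding RNA AI506816. Ldha, lactate dehydrogenase A, had its region at chr7:46845803-46846085 (Pol II 14.2, Ser5P 11.2), 3529 bp from the gene's outer end and over a cWT H3K4me3 region. In 4 members H3K4me3 and Pu.1 were both listed: near Rfx8, Gm8279 and Speer4d, and inside Lcp1, which encodes the leukocyte actin bundler L-plastin.

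Most members lay more than 10 kb from any cWT H3K27ac region. One was within 10 kb of 193 (21.7%) and within 1 kb of 30, and the median distance was 34121.5 bp. The share within 10 kb was 23.0% in distal Pol II without listed Ser5P and 16.3% in the gene-end class. The rule kept out overlap with these lists, so this is a description. The closest were near Cd34 (9 bp), in Grk2 (45 bp), in Ak5 (53 bp) and in P2ry12 (139 bp). P2ry12 encodes the purinergic receptor that steers microglial processes. Its region, chr3:59228860-59229230, had a Pol II signal of 13.3 and a Ser5P signal of 6.24. The genes assigned to members also had cWT H3K27ac regions of their own in 425 of 736 cases (57.7%), beside 4295 of all 21900 coding genes (19.6%). Genes with members were long, with a median span of 49.8 kb against 17.1 kb for all coding genes, and the part of length in this difference was not tested.

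On chromosome X there were 15 members (1.69%) against 6 of the 1032 distal regions without Ser5P (0.581%), an odds ratio of 2.80 (1.12 to 7.03). The two-sided Fisher's exact p was 0.0262, and 0.0590 after adjustment, so the difference did not pass. It passed when the distance limit was 1 kb (2.24% against 0.620%, exact test adjusted p = 0.00475). In the other 9 alternatives it kept its direction and did not pass. Without the windows of predicted genes it was 0.847% against 0.432% (exact test adjusted p = 0.845). The gene-end class had 40 of 1138 there (3.51%). Members on X lay near Med14, a Mediator subunit (2 regions, Pol II 19.7 and 18.4), Ddx3x, an RNA helicase (19.0), Dock11 (12.7), Tlr13, a receptor for bacterial RNA (17.7), and inside Flna, the actin crosslinker filamin A (13.2). Some of the X members were neighbours: the Med14 gene (12675368 to 12762594) lies close to the region near Usp9x described above (chrX:13041751-13042164). Chromosome Y held 4, of which 3 lay near Gm52481.

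The 84 members at RefSeq promoter windows covered 106 windows, 59 of the members at a coding gene and 25 at long noncoding RNAs only. Against distal Pol II without listed Ser5P the share was 9.46% to 7.85% (odds ratio 1.23, 0.892 to 1.69, adjusted p = 0.332 by Fisher's exact test), a comparison added after the data were seen. It passed with a distance limit of 1 kb (11.3% against 8.41%, exact test adjusted p = 0.0493), and its direction turned in 2 alternatives. Their median Pol II signal was 14.0 and their median Ser5P signal 12.04, against 12.5 and 10.2 for the other 804 members. At coding genes, the Iqgap1 region (chr7:80802994-80803517) had 16.4 and 14.2, and the Arntl region (chr7:113207032-113207792), at an internal start of the clock gene also called Bmal1, had 16.9 and 11.2. The Gabpb1 region had 18.2 and 11.9, and the Lmna region 13.6 and 10.6. Gabpb1 encodes the beta subunit of the ETS factor GABP, and Lmna the nuclear lamins A and C. The Csk region, at a kinase that restrains Src family kinases, had 12.4 and 6.32, and the Fgd3 region 11.1 and 8.88. The Eci2 region had 11.8 and 17.9.

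Noncoding starts included Dancr and the snoRNA host genes Snhg3 and Snhg7. The Dancr region (chr5:74093049-74093439) had a Pol II signal of 21.4 and a Ser5P signal of 17.7, and began 11 bp before the start at 74093060. Snhg3 had 16.1 and 11.7, and Snhg7 had 12.6 and 7.40. Malat1, an abundant nuclear RNA, was weak, with 6.80 and 4.03. The Zmiz1os1 region, beside Zmiz1, had 7.59 and 12.04.

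The windows under members were richer in G and C than RefSeq windows as a whole, with a median of 60.4% against 52.4%. Counted over the 250 bases before each start, the GC box GGGCGG was in 53 of the 106 windows, and in 32.7% of all 32851. GAGGAA was in 29.2% against 23.3%, CCAAT in 30.2% against 33.8%, TATAAA in 4.72% against 12.4% and TGANTCA in 2.83% against 6.75%. Both strands were searched and matches of different motifs may overlap. Some windows under 1 member overlap each other, so the same site can be counted more than once. Windows under the other classes of Pol II regions were not counted. The GC box, CCAAT box and TATA box were added after the data were seen, and no test was made.

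Among microRNAs, 8 members (0.901%) lay within 5 kb of 9 hairpins, out of 1005 hairpins in the table. The share was 0.581% in distal Pol II without listed Ser5P, 2.37% in the gene-end class and 1.36% in the whole Pol II list. The region over Mir212 had a Pol II signal of 15.5 and a Ser5P signal of 10.6. The region 134 bp from Mir210, chr7:141221627-141222049, had 12.6 and 7.14. The region near Mir21a, chr11:86579094-86579338, lay outside coding genes, 4520 bp beyond the nearest end of Vmp1, and was weaker, with 7.93 and 4.51. The seeds printed above for miR-132 and miR-212 thus belong to 1 region, not to separate members. Others were near Mir8104, Mir1894, Gm51276, Mir701 and Mir6769b.

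By the shortest coding span that held the midpoint, or otherwise the nearest coding end within 100 kb, 853 members were assigned to 736 genes, 3.36% of the 21900 coding genes. A total of 641 genes had 1 member, 78 had 2, 12 had 3 and 5 had 4. With end-to-end pairs counted once, 3 genes had 4 and 11 had 3. Of the 736, 150 (20.4%) also had a cKO Pol II region within 2 kb of an end, beside 12.4% of all coding genes. The 736 were longer, with a median span of 49.8 kb against 17.1 kb, and the part of length in this difference was not tested.

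Slc1a3, the glutamate transporter GLAST, had 3 members inside the gene and 1 that lay 4505 bp beyond its 3′ end. Their Pol II signals were 6.54, 11.2, 9.01 and 9.34 in genome order, and the one at chr15:8681264-8681603 was 871 bp from a cWT H3K27ac region. Ssh2, a phosphatase that activates the actin-severing protein cofilin, had 4 inside the gene, between 77.8 and 230.7 kb from its 5′ end, with signals of 8.88, 9.03, 10.6 and 7.17. Dennd4a, a regulator of Rab GTPases, had 3 inside and 1 upstream, from 5.67 to 12.99. Dtnbp1, which encodes dysbindin, had 2 inside (8.44 and 9.96) and an end-to-end pair upstream at 19.0. Basp1, a membrane-bound signalling protein, had all 4 outside, 1 upstream and 3 downstream, between 11.5 and 17.1. Among genes with 3, Rere, Etv6, Plcl1, Ttc28 and Dock4 had every member inside the gene. Klf6, Batf3, Fgd2, Hk2 and Gm52481 had every member outside it.

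**Figure D4:**
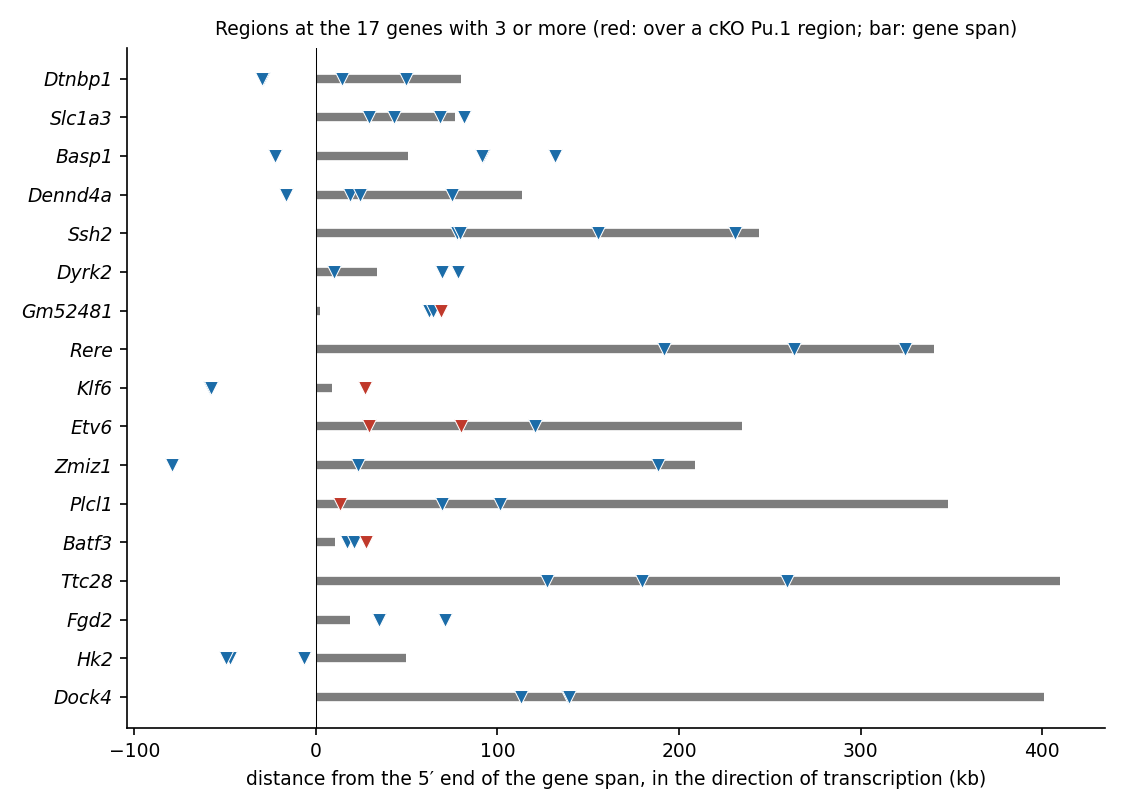
Position of the distal Pol II/Ser5P regions at the 17 genes with 3 or more of them; the x axis is the distance in kb from the 5′ end of the gene in the direction of transcription, grey bars are gene spans, triangles are region midpoints, and red ones overlapped a cKO Pu.1 region. Regions that lie end to end, as at Dtnbp1, Basp1, Klf6, Fgd2 and Dock4, fall under 1 triangle; those at Ssh2 are all inside the gene and those at Batf3 all beyond its 3′ end.

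The 12 lists of genes known in microglia, signalling and transcription were each counted against the 3.36% of all coding genes with a member. Their genes were longer than most, with a median span of 27.6 kb, and were chosen with earlier results of these data known, so no list was tested. Of 335 symbols, 55 had a member, and 27 had one by gene span alone. A member counted for a gene may thus lie outside it, within 100 kb of an end.

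The list of AP-1 and immediate early genes had members at 9 of 27 genes (33.3%). The list joins genes of AP-1 family factors with immediate early genes, and only the latter are defined by a response within minutes to stimulation. Every member assigned to the 9 genes lay outside the gene span and was assigned by the nearest end within 100 kb. By gene span alone, no gene of this list had a member, beside 2.14% of all coding genes. Batf3, an AP-1 family factor, had 3 beyond its 3′ end, at chr1:191115192-191115621, 191119222 to 191119582 and 191125826 to 191126195. Their Pol II signals were 10.1, 6.87 and 20.1, and the last and strongest overlapped Pu.1. Klf6, a zinc finger factor of activated macrophages, had an end-to-end pair upstream at 15.1 and a region downstream at 19.7 with Pu.1. Fos had 1 region 4851 bp upstream (8.41) and another 37379 bp upstream (14.4). Jdp2, which dimerises with Jun and Fos proteins, had 1 at 57109 bp upstream (8.87). Btg2 had 9.89 and 8.36, and Zfp36l2, a factor that destabilises mRNA, had 8.69 and 8.17. Myc, Egr3 and Atf3 had 1 each, with 17.3, 9.99 and 8.17.

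The NF-kB and cytokine list had members at 5 of 34 genes (14.7%). Il1b, the gene of interleukin 1 beta, had 2 upstream, at 2142 bp (chr2:129373306-129373748, Pol II 16.1, Ser5P 11.9) and 9048 bp (chr2:129380212-129381248, 19.1 and 16.0). The second was 1037 bp wide. Tnip1, which restrains NF-kB with A20, had 19.0 and 15.5 inside the gene, and Tnfaip3, which encodes A20, had 16.97 and 13.1 at 18114 bp upstream. Ccl2 and Socs3 had Pol II signals of 13.3 and 12.8, each outside the gene.

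Homeostatic microglia genes had members at 7 of 33 (21.2%): Entpd1, Tgfbr2, P2ry12, Mertk, Bin1, Mef2a and Mef2c, each with 1. Their Pol II signals ran from 6.90 at Mef2c to 15.8 near Bin1, outside that gene. Entpd1 removes extracellular ATP, Tgfbr2 receives the TGF-beta signal that maintains microglia, and Mertk takes up apoptotic cells. Myeloid transcription factors had members at 7 of 30 (23.3%), Batf3, Zeb2, Ets2, Fli1, Irf2, Mef2a and Mef2c. The regions outside Irf2 (11.2) and Ets2 (10.6) and inside Zeb2 (6.65) were of middling or low signal.

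Regulators of actin and small GTPases had members at 9 of 35 (25.7%). Dock4, which activates Rac and Rap, had 3 inside the gene with 17.3 and, in an end-to-end pair, 14.4. Fgd2, an activator of Cdc42, had 11.5 for an end-to-end pair and 15.3, all downstream. Fmnl2, a formin, had 19.9, Elmo1, a partner of Dock proteins, 17.6, and Wasf2 of the WAVE complex 12.8. The signalling list of PI3K, phosphoinositides and calcium had 6 of 26 (23.1%). Pik3r1, the regulatory subunit of PI3K, had 21.7 and 14.6, both outside the gene. Stim1, the calcium sensor of the endoplasmic reticulum, had 20.4, and Inpp5d, the phosphatase SHIP1, had 4.96, each inside its gene.

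Chromatin and Polycomb genes had 6 of 34 (17.6%), with 3 assigned to the coactivator Zmiz1 (7.59, 8.78 and 15.6), 2 of them inside the gene. Chd7 had 2 inside the gene and Kmt2e 2 outside it. The Polycomb subunit Eed had 1 outside the gene (10.5, with Pu.1). Phagocytosis and lysosome genes had 5 of 30 (16.7%), with 19.0 near Gpnmb, 16.0 in Mitf and 5.21 near Ctsd. Disease-associated microglia genes had 3 of 30, Ctsd, Lgals3 and Gpnmb. The interferon list had 2 of 28 (7.14%), Ifnar1 (14.0, at 19859 bp upstream) and Ifnar2 (11.2, inside the gene), the chains of the type I interferon receptor. These 2 regions overlapped the promoter windows of the long noncoding RNAs A930006K02Rik and Gm36587, not those of the receptor genes. Pol II pausing and elongation genes had 2 of 33 (6.06%), Med13l (7.79) and Ints1 (13.2), and the microRNA machinery had 1 of 14 (7.14%), Tnrc6b (14.2). Outside the lists, Hk2, the hexokinase of activated myeloid cells, had 3 upstream with 10.5, 9.78 and 9.31.

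**Figure D5:**
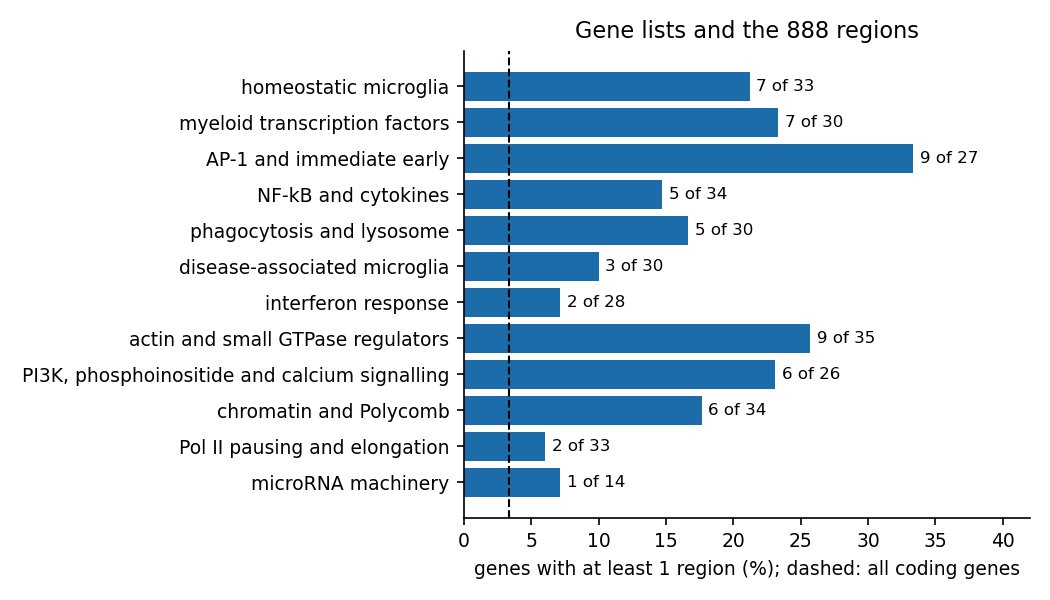
Share of the genes of each of 12 lists with at least 1 distal Pol II/Ser5P region (x axis, %), with the number of genes beside each bar; the dashed line is the 3.36% of all 21900 coding genes. The AP-1 and immediate early list is highest at 33.3%, with all its regions outside the gene spans. The Pol II pausing list is lowest at 6.06%, and no list was tested.

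Of 8 microglial marker genes, P2ry12 had a member. None of the 5 markers each of border macrophages, monocytes and neutrophils, neurons, astrocytes, oligodendrocytes, endothelium and lymphocytes had one. Outside these lists, and chosen after their values were seen, some genes typical of other brain cells did. The astrocyte transporter gene Slc1a3 had 4, of which 3 lay inside the gene. Mobp of oligodendrocytes had 1, outside the gene. The neuronal genes Camk2a, Bsn and Elavl4 had 1 each, inside the gene. The part of such other cells in the results was not tested. A region list reports differences between genotypes, so neither count says how pure the cells were.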

How the data were processed

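CUT&Tag of 5 antibodies in cKO and cWT microglia was analysed from 10 deposited region lists, 1 per antibody and genotype. Per the submitters' processing notes, the builds were mm10 and GRCm38, and the tools HOMER (4.11), MACS2 (2.2.7.1), Bowtie2 (2.4.4) and bedtools (2.30.0). The pooling of replicates and the criterion for a genotype-specific region are steps on which these sources are silent. Each deposited line holds a position, a score (not printed here), a signal on an unstated scale, a p-value and its adjusted value. Depth is unknown. Positions are mm10, counted from 1.

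Overlap was at least 1 bp. RefSeq genes of GRCm38.p6 gave 21900 coding genes, mitochondrial ones included, and promoter and microRNA sequences. Motifs in the regions themselves were not searched, since no genome was used. Classes of regions were compared by Fisher's exact test, two-sided, Benjamini-Hochberg adjusted over 9 tests (8 planned, 1 added), with 0.5 added to each cell for odds ratios. The functions were tested on simulated data.

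The members and gene lists were chosen with earlier results of these data known. Named were genes with the most members, the 8 strongest members by signal, up to 8 each with Pu.1 and H3K4me3, those at the limits, and up to 5 genes per list. Any other gene or region in the text was picked with its values in view. Alternatives changed the distance, overlap, H3K27ac condition, width, p, clustering, chromosomes, gene set and assignment. Python 3.11.15, numpy 2.4.6, pandas 2.3.3, scipy 1.17.1 and matplotlib 3.10.9 were used.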

Additional observations from a re-analysis of the deposited data

How the results depend on the processing

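The number of members stayed within 1.5 times 888 in 9 of 11 alternatives. It was 514 in the upper part of the list by deposited p and 354 without 1 Mb windows holding at least 10 predicted genes, a broad filter that held 534 of the 888. Against distal Pol II without listed Ser5P, the share inside coding genes turned direction with a limit of 1 kb (61.2% against 60.2%), with 5 kb (58.8% against 58.7%) and in the upper part by p (56.2% against 54.9%). The share on chromosome X passed the threshold with 1 kb (2.24%) and in none of the other 9 alternatives. The share at promoter windows passed with 1 kb (11.3%, adjusted p = 0.0493 by Fisher's exact test) and turned direction without the predicted-gene windows (7.63% against 7.99%) and when coding starts of the promoter table were also kept 2 kb away (2.86% against 3.14%), an alternative chosen after seeing the data. The cause of these changes was not tested. The differences from gene-end regions in Pu.1 and H3K4me3 kept direction and threshold in each of 12 alternatives, with odds ratios of 3.09 to 4.42 and 0.220 to 0.298. Each alternative kept a split by distance from gene ends, so none could separate these differences from that split. The Pu.1 and H3K4me3 comparisons with distal Pol II without listed Ser5P kept direction and stayed short of the threshold in each of 12. Genes of the 12 lists with a member numbered 55, beside 3.36% of all coding genes. They numbered 38 with ends within 10 kb, beside 2.58%, and 27 by gene span alone, beside 2.14%. No paired analysis was possible because the lists hold no value per replicate, and for that reason no replicate was left out. The planned motif search in the members was not run, since no genome was used.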
